A study of Mus musculus with 12 samples.

Results

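Pools 5 and 6 of both genotypes, 4 arrays in all, were set against pools 1 to 4 of both genotypes, 8 arrays, out of 12 in the series. The pools were taken by the number in the sample title, and they were singled out because measured values of these same arrays had set them apart. All differences between the pool sets below are therefore a description of these arrays and carry no test. Total RNA of dorsal root ganglia had been hybridised to single-colour Illumina BeadChips. Each array carried a pool of ganglia of lumbar levels 3, 4, 5 and 6 from mice aged 15 days, of a strain background given as C57/BL6;129Ola mixed. There were 6 control pools, whose genotype is given as wildtype, and 6 pools of Isl1-Cre//c-Maf conditional mutants. In the mutants Cre is driven from Isl1, a transcription factor gene of sensory neurons, and removes Maf where it acts. The labels do not say how many mice made a pool, whether the controls carried Cre or a floxed allele, or whether pools of the same number share a litter or a day, so the spread is that between pools. Pools 1 to 3 of both genotypes lay on one BeadChip and pools 4 to 6 on the other. The 4 arrays of pools 5 and 6 thus shared a chip with the 2 arrays of pool 4.

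Dorsal root ganglia lie beside the spinal cord and hold the cell bodies of sensory neurons, wrapped by satellite glia, with the Schwann cells of their axons, vessels and connective tissue. Mice of a mixed background carry at each stretch of an autosome a pair of copies, each of C57/BL6 or 129 origin, and neighbouring genes are usually inherited together. A probe is a short sequence fixed on a bead, and a level below is what such a probe read. The strain version at any position was not measured on these arrays, and its part in the results was not tested.

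Of 25697 probes, 13728 had a detection p below 0.05 in 4 arrays or more, and they stood for 9565 genes, each by its brightest such probe. Levels are background-corrected, quantile-normalized log2 intensities, and a difference is pools 5 and 6 minus pools 1 to 4 with genotype in the fit. The median difference of all 9565 genes was 0.002, with quartiles of -0.067 and 0.074, and the median SE was 0.11. The genes were picked out in 2 ways, as a description: a Benjamini-Hochberg adjusted p under 0.05 in limma, used as a cut alone, and a complete separation, in which all 4 arrays of pools 5 and 6 lay on one side of all 8 others. The first listed 4 of 13728 probes (0.0291%) and 3 of 9565 genes (0.0314%). The other gave 35 genes (0.366%): pools 5 and 6 read lower in 24 (0.251%) and higher in 11 (0.115%).

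The 3 listed genes, Gramd4, Atf4 and Tomm22, all lie on chromosome 15, and all were lower in pools 5 and 6 in controls and mutants alike. Gramd4 encodes a GRAM domain protein that takes part in cell death signalling from mitochondria. Atf4 encodes the basic leucine zipper transcription factor that carries the integrated stress response. Tomm22 encodes a receptor subunit of the translocase through which proteins enter mitochondria.

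The bases just before the start of each of these genes are shown because the same 3 genes carry the split. They also stand apart from the tested genes right next to them. The sequences are RefSeq's reference on build GRCm38.p6, 250 bases before the start site, 5′ to 3′, with capitals at matches to a motif. They are the reference strain's letters and were not read from these mice.
Tomm22, chr15:79670618-79670867, plus strand: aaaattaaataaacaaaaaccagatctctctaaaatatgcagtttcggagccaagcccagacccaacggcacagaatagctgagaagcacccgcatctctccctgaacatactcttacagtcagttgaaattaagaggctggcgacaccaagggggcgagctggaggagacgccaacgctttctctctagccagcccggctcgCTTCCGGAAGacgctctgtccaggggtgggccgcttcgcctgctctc
Atf4, chr15:80254934-80255183, plus strand: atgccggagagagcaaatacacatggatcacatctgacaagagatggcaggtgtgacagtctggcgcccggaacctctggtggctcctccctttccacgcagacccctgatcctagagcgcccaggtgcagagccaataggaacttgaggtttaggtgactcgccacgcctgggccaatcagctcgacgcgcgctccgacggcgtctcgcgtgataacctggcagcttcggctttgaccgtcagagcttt
Gramd4, chr15:86057445-86057694, plus strand: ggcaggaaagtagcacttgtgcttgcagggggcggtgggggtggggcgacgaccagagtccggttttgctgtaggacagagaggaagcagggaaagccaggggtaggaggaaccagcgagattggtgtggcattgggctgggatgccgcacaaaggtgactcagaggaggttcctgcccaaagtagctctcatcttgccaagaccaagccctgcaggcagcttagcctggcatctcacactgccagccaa

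A set of 3 motifs was searched on both strands, chosen after the values were seen: TGACGTCA, the cAMP response element; TGATGCAA, a composite element bound by ATF4 with C/EBP proteins; and CCGGAAG, a core bound by ETS factors. The first was held by 1.55%, the next by 0.791% and the third by 6.91% of 32851 promoter windows of the same length. The Tomm22 window held 2 ETS matches, 1 on each strand and overlapping each other, which form the single run of capitals. The windows of Atf4 and Gramd4 held none of the 3 motifs. Gramd4 has 3 start sites in the table, of which the one nearest the annotated gene start is shown. Of the 35 completely separated genes 26 have an entry in the promoter table.

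Gramd4 read 4.73 and 4.72 in control pools 5 and 6, and 4.54 and 4.55 in mutant pools 5 and 6. In the 8 arrays of pools 1 to 4 it ran from 6.89 through a median of 7.69 to 8.21. The probe was detected on all 8 of those arrays and on 0 of the 4 arrays of pools 5 and 6, whose values are the background. The level was thus at least 5.06-fold lower in pools 5 and 6, and the fitted difference was -2.99 (SE 0.23).

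Atf4 read 7.47 and 7.33 in control pools 5 and 6, and 7.51 and 7.46 in mutant pools 5 and 6. In pools 1 to 4 it ran from 9.07 through 9.58 to 10.63, with mutant pool 3 the highest. The groups lay far from overlap, and the 4 low arrays agreed closely, with 7.44 ± 0.08 (SD, n = 4) against 9.66 ± 0.56 (SD, n = 8). The difference of -2.22 (SE 0.25) is a 4.65-fold lower level, and the probe was detected on all 12 arrays.

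Tomm22 read 7.48 and 7.57 in control pools 5 and 6, and 7.66 and 7.47 in mutant pools 5 and 6. In pools 1 to 4 it ran from 8.98 through 9.24 to 9.94. Means were 7.54 ± 0.09 (SD, n = 4) and 9.38 ± 0.40 (SD, n = 8), a 3.57-fold lower level in pools 5 and 6 with a difference of -1.84 (SE 0.19). Each of the 3 genes was read by 1 tested probe, so no second probe bears on these differences.

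**Figure D1:**
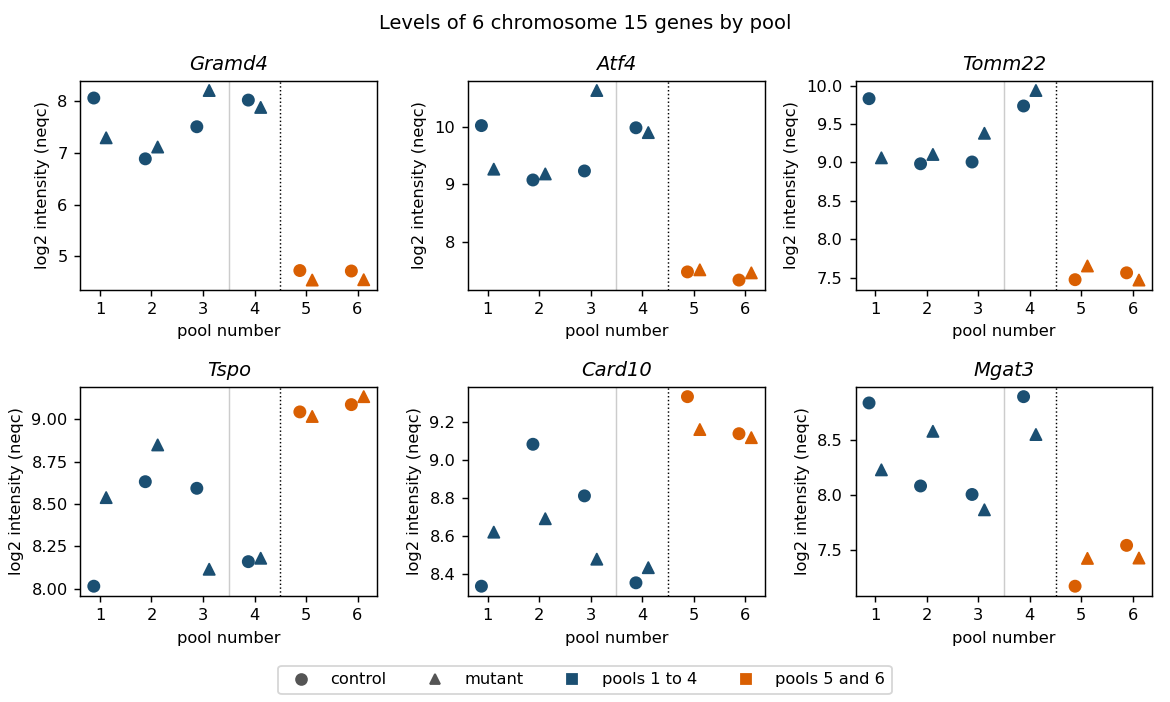
Level of 6 genes of chromosome 15 on each of the 12 arrays, as log2 intensity (vertical axis, scaled to each gene and not starting at 0) by pool number (horizontal axis), with circles for controls, triangles for mutants, blue for pools 1 to 4 and orange for pools 5 and 6. The solid line parts the 2 chips and the dotted line the 2 pool sets; the orange points of Gramd4, Atf4, Tomm22 and Mgat3 lie below all blue points, and those of Tspo and Card10 above all of them.

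The fourth listed probe belonged to Tspo, also on chromosome 15, which encodes the translocator protein of the outer mitochondrial membrane. Unlike the other 3 genes, Tspo was higher in pools 5 and 6. Its brightest probe read 9.04 and 9.09 in control pools 5 and 6 and 9.02 and 9.13 in mutant pools 5 and 6, against 8.02 through 8.36 to 8.85 in pools 1 to 4. Its 3 tested probes had differences of 0.69, 0.72 and 0.83, all in the same direction. The brightest and the listed probe separated the pool sets completely. The remaining one, at 0.72, overlapped, with mutant pool 2 at 7.87 and control pool 5 at 7.79.

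In all, 10 of the 35 completely separated genes lay on chromosome 15. These are named after their values were seen: Arc, Lynx1, Card10, Kdelr3, Tomm22, Pdgfb, Mgat3, Atf4, Tspo and Gramd4, in chromosome order. They were 10 of 398 tested genes there (2.51%), against 25 of 9163 genes with a position on the other chromosomes (0.273%). The next highest share was that of chromosome 13, with 3 of 332 genes (0.904%), and chromosomes 3, 6, 8, 14, 18 and 19 held none. Of the 15 separated genes whose difference was over 0.5 in size, 9 lay on chromosome 15. These shares describe genes chosen on the same values, and genes next to each other are not independent.

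**Figure D2:**
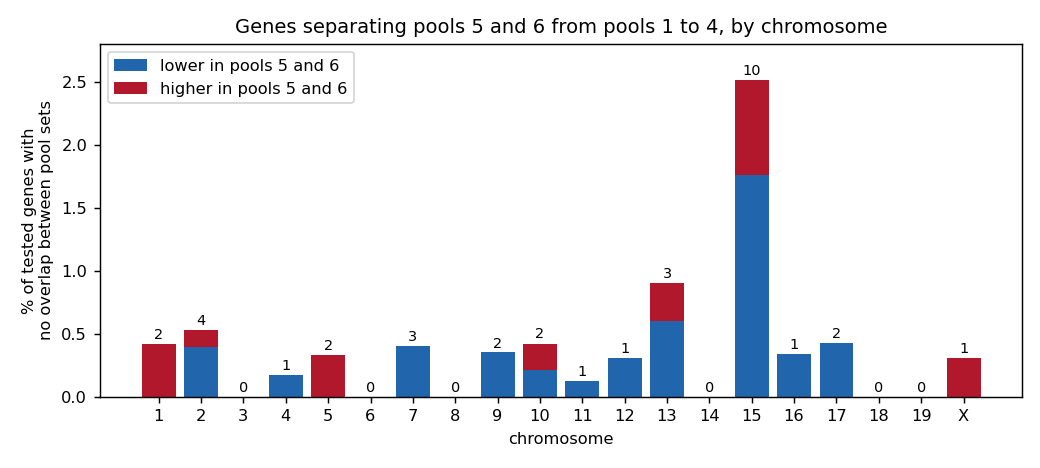
Share of tested genes whose 4 arrays of pools 5 and 6 lay all above or all below the 8 others (vertical axis, percent) for each chromosome, with blue for genes lower and red for genes higher in pools 5 and 6, and the number of genes over each bar. Chromosome 15 stands at 2.51% with 10 genes, and chromosome 13 follows at 0.904% with 3; chromosome Y, with 3 tested genes and 0 separated, is not drawn.

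Along chromosome 15 the 10 genes fell between the 125th and the 280th of its 398 tested genes. This stretch was drawn from the first to the last of these same 10 genes. It holds 156 tested genes, of which 6.41% were separated, a share raised by that choice of ends. The count of 0 separated among the 242 tested genes outside it is fixed by the same choice. Within 20 consecutive tested genes, 4 or more separated genes occurred in 1 place in the genome: Kdelr3, Tomm22, Pdgfb, Mgat3 and Atf4, 5 of the 16 genes from the first to the last. On the other chromosomes no window of 20 held more than 2. With windows of 40 the run began at Card10 and held 6 of 33 genes, and with windows of 10 there was no run. The adjusted p cut alone listed 3 genes, fewer than the 4 that a run needs. It could therefore give no run at any window size.

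Over all 156 genes of the stretch the median difference was -0.013, with quartiles of -0.102 and 0.049 and 92 genes below 0. The 146 that were not separated, had a median difference of -0.009, with quartiles of -0.089 and 0.048, and 134 of them lay within 0.2 of 0. The 4 of them over 0.4 in size were Cdc42ep1 (-0.82, SE 0.20), which comes right after Card10 in order, Efcab6 (0.60), Lypd2 (-0.55) and Fbln1 (0.45), named after their values were seen. Cdc42ep1 was detected on 1 of the 4 arrays of pools 5 and 6, so its level there is mostly background. The genes right next to the listed ones differed far less than the listed ones did. Beside Atf4, Mief1 stood at -0.08 (SE 0.11) and Rps19bp1 at -0.03 (SE 0.13). Mgat3, itself separated, comes right before Mief1 and stood at -0.99 (SE 0.19). Beside Tomm22, Cby1 stood at -0.003 (SE 0.13) and Josd1 at 0.03 (SE 0.08). Beside Gramd4, Celsr1 stood at -0.28 (SE 0.10), outside the quartiles of all genes, and Cerk at 0.14 (SE 0.09).

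**Figure D3:**
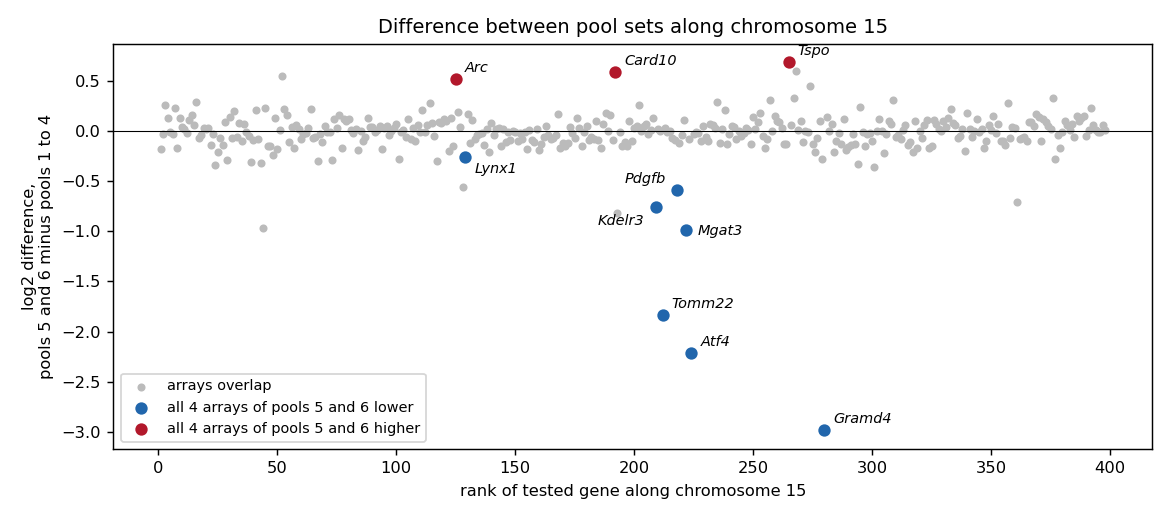
Log2 difference, pools 5 and 6 minus pools 1 to 4 (vertical axis), of each of the 398 tested genes of chromosome 15 by rank along the chromosome (horizontal axis), with blue and red for the 7 lower and 3 higher genes whose pool sets do not overlap. The 10 coloured genes lie between rank 125 and rank 280, from -2.99 (Gramd4) to 0.69 (Tspo), while the grey genes of the stretch run from -0.82 (Cdc42ep1) to 0.60 (Efcab6), with quartiles of -0.089 and 0.048.

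Among the other 6 separated genes of chromosome 15, 4 were lower in pools 5 and 6. Mgat3 encodes the glycosyltransferase that adds the bisecting N-acetylglucosamine to N-glycans. It read 7.18 and 7.55 in control pools 5 and 6 and 7.43 and 7.43 in mutant pools 5 and 6, against 7.87 through 8.39 to 8.89, a difference of -0.99 (SE 0.19). Kdelr3 encodes a receptor that returns proteins to the endoplasmic reticulum. It read 7.217, 6.818, 7.404 and 6.930 in the same order, against 7.47 through 7.89 to 8.34, and its highest low array lay just under the lowest of the others (-0.76, SE 0.17).

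Pdgfb encodes the B chain of platelet-derived growth factor, which endothelial cells release to recruit pericytes. It read 6.91, 6.87, 6.30 and 6.83, against 7.02 through 7.39 to 7.61 (-0.59, SE 0.13). Lynx1 encodes a membrane-anchored protein that modulates nicotinic acetylcholine receptors. Its bright probe read 12.002, 12.230, 12.136 and 12.251, against 12.33 through 12.39 to 12.56 (-0.26, SE 0.08). The dimmer Lynx1 probe stood at 0.06 (SE 0.10) and overlapped between the pool sets, so the 2 probes of this gene disagree.

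The remaining 2 were higher in pools 5 and 6. Card10 encodes a scaffold that links receptors to NF-kappa-B signalling. It read 9.34 and 9.14 in control pools 5 and 6 and 9.16 and 9.12 in mutant pools 5 and 6, against 8.33 through 8.55 to 9.08 (0.59, SE 0.13). Arc encodes an activity-regulated protein of synapses. It read 5.77, 6.03, 5.47 and 5.57, against 4.69 through 5.31 to 5.46 (0.52, SE 0.10), and was detected on 4 of the 8 arrays of pools 1 to 4, so that its values there are close to background.

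Pools 1 to 4 were not uniform at these genes. For Gramd4, Atf4 and Tomm22 the 4 highest of the 8 arrays were the same: control pools 1 and 4 and mutant pools 3 and 4. For Tspo and Card10 those same 4 arrays were the lowest. The step between the fourth and the fifth array was narrow for Gramd4 (7.88 and 7.51) and Tomm22 (9.38 and 9.10) and wider for Atf4 (9.90 and 9.26). The other separated genes of chromosome 15 did not share this order. For Mgat3 the 4 highest were control pools 1 and 4 and mutant pools 2 and 4, and for Arc they were the 4 control pools. For Kdelr3 they were control pools 1 and 2 and mutant pools 2 and 4. For Pdgfb they were control pools 1, 2 and 3 and mutant pool 3. For Lynx1 they were control pools 1, 3 and 4 and mutant pool 4. These orders were read from the values and were not tested.

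The difference was measured in controls and mutants apart, with 2 against 4 arrays each. Gramd4 stood at -2.90 in controls and -3.08 in mutants, Atf4 at -2.18 and -2.26, and Tomm22 at -1.87 and -1.81. All 35 separated genes had the same sign in both genotypes, which their choice fixes. The test of the product of pool set and genotype does not rest on the contrast that picked the pools. It called 0 of 13728 probes (0%) in limma with Benjamini-Hochberg adjustment, and 431 probes had an unadjusted p under 0.05, where 5% of the tested probes would be 686. The difference in mutants minus that in controls was -0.18 (SE 0.47) for Gramd4, -0.09 (SE 0.52) for Atf4 and 0.06 (SE 0.39) for Tomm22, each with an adjusted p of 1. A product that misses the cut does not show that the differences are equal in both genotypes. These 3 genes were also picked on the same arrays by a cut that favours agreement between genotypes. Their small products are therefore no separate evidence.

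Without control pool 5 the product test called 3 probes in place of 0. The smallest unadjusted p values belonged to Csrp1 (-1.54), Ramac (1.31), Shisa4 (1.05), Dctn1 (-1.04) and Slc6a13 (-1.21), given as the difference in mutants minus that in controls. Csrp1, a LIM domain protein of smooth muscle, ran from 9.16 to 9.37 in control pools 1 to 4 and read 9.55 and 10.26 in control pools 5 and 6. In mutants it ran from 9.83 to 10.48 in pools 1 to 4 and read 9.16 and 9.36 in pools 5 and 6. None of these 5 lies on chromosome 15, and each had an adjusted p of 1 in limma.

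**Figure D4:**
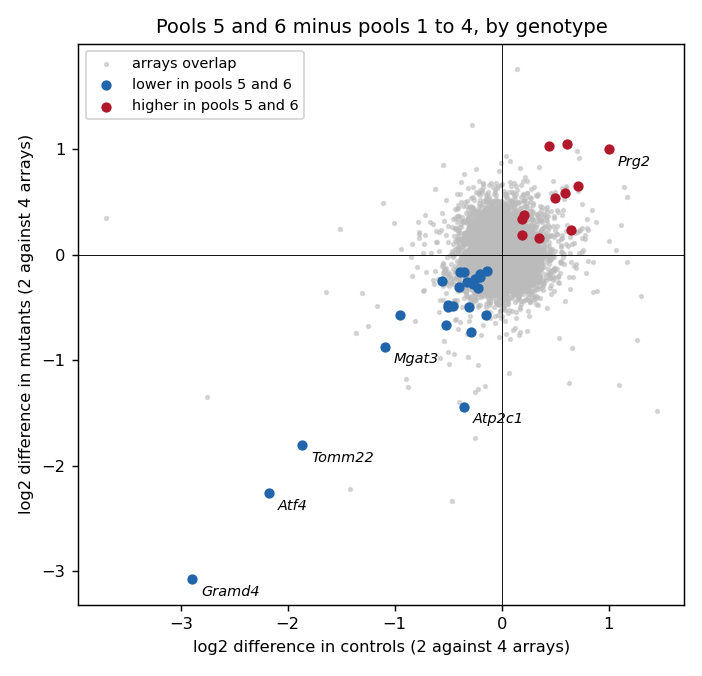
Log2 difference, pools 5 and 6 minus pools 1 to 4, in controls (horizontal axis) and in mutants (vertical axis) for 9565 genes, 2 against 4 arrays in each genotype; blue and red mark the 24 lower and 11 higher genes whose pool sets do not overlap. Gramd4, Atf4 and Tomm22 lie at the lower left, with similar values in both genotypes, while the mutant value of Atp2c1 (-1.44, against -0.35 in controls) rests on mutant pool 6 and is -0.41 without it.

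The targeted gene followed genotype and not pool. Maf, the transcription factor gene removed in the mutants, was detected on all 6 control arrays, at 7.11 to 7.86, and on none of the 6 mutant arrays, at 4.49 to 4.70. Its difference between the pool sets was 0.06 (SE 0.13). In the fit that held both pool set and genotype, 23 of 9565 genes (0.24%) were called for genotype, and 0 of the 35 separated genes were among them. As 0.24% of all genes were called, 0 of 35 says nothing about the separated genes. Isl1 ran from 11.20 to 11.95 in pools 5 and 6 and from 11.14 to 11.96 in pools 1 to 4.

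All 4 arrays of pools 5 and 6 lay on the second chip, and within it they could be set against pool 4 alone, 4 arrays against 2. There the differences were -3.32 for Gramd4, -2.50 for Atf4 and -2.29 for Tomm22, against -2.99, -2.22 and -1.84 over all 12 arrays. Both arrays of pool 4 were among the 4 highest of pools 1 to 4 for these 3 genes. The values are also those that set the pools apart, so they are no separate evidence. Within the chip 4 of 9565 genes (0.0418%) passed the cut: these 3 and Prkag2. Prkag2, on chromosome 5, encodes a regulatory subunit of the AMP-activated protein kinase. It read 9.41 and 9.24 in control and mutant pools 4, but also 9.43 and 9.37 in control pools 2 and 3, and 5.30 to 6.14 in the other 8 arrays, so its pattern did not follow the pool sets. The first chip held no array of pools 5 and 6.

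Kansl1l, on chromosome 1, came next in size after these genes, at -1.82 (SE 0.32), but its pool sets overlapped. It read 4.95, 4.95, 4.87 and 5.35 in pools 5 and 6 and 6.57 to 7.79 in 7 arrays of pools 1 to 4, while control pool 1 read 5.05. Its probe was detected on 1 of the 4 arrays of pools 5 and 6. The level there is thus mostly background, and the size of the difference depends on it.

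Outside chromosome 15, 25 genes were separated, on 13 chromosomes, and 6 of them differed by over 0.5. Prg2 encodes the eosinophil major basic protein and stood at 1.00 (SE 0.17). It read 5.81, 5.93, 6.10 and 6.20 in pools 5 and 6, against 4.58 to 5.59, and was detected on 2 of the 8 arrays of pools 1 to 4, so the lower level is mostly background and the size of the difference depends on it. Within chip 2 it stood at 0.64. Col5a2, a chain of type V collagen, stood at 0.83 (SE 0.17), and Tnfrsf11a, the receptor RANK, at 0.74 (SE 0.22), both on chromosome 1; within chip 2, against pool 4 alone, they stood at 0.54 and 0.20. Their groups nearly met: control pool 4 read 5.96 for Col5a2 and 7.99 for Tnfrsf11a, against lowest values of 6.01 and 8.06 in pools 5 and 6.

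Atp2c1, which encodes the calcium and manganese pump of the Golgi, stood at -0.90 (SE 0.34), a value that rests on mutant pool 6. That array read 6.39, while the other 3 arrays of pools 5 and 6 read 8.42 to 8.47, just under the lowest of pools 1 to 4 at 8.47. Without mutant pool 6 the difference was -0.37. Its dimmer probe stood at -0.12 and overlapped. Fgd6, an exchange factor for the GTPase CDC42, stood at -0.50 (SE 0.15), and at -0.85 within chip 2. Tedc1, a partner of the tubulins needed for centrioles, stood at -0.51 and was detected on 0 arrays of pools 5 and 6 and 4 of pools 1 to 4. The levels of Tedc1, Glyctk and Bmyc in pools 5 and 6 were the background, and the bounds were at least 1.05-fold, 1.13-fold and 1.18-fold lower.

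Within chip 2 the values of Tedc1 (-0.26), Glyctk (-0.28), Cox11 (-0.16), Dhx16 (-0.14), Zfp346 (-0.12), Usp12 (0.17) and Ube2n (0.11) were smaller by over 1.5 times, and that of Map7d3 (0.42) was larger.

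The 19 genes under 0.5 ranged from 0.15 to 0.49 in size, with 14 lower and 5 higher. Lower were Gatm (-0.49), the first enzyme of creatine synthesis; Glyctk (-0.47), the glycerate kinase; Cox11 (-0.27), an assembly factor of cytochrome oxidase; Ndufab1 (-0.27), the mitochondrial acyl carrier protein; Prkdc (-0.27), the catalytic subunit of the DNA-dependent protein kinase; and Rps9 (-0.19), a ribosomal protein. Bmyc (-0.40), Zbtb8os (-0.40), H2-D1 (-0.36), Gpatch1 (-0.35), Oser1 (-0.29), Dhx16 (-0.24), Zfp346 (-0.21) and Serf1 (-0.15) were also lower. Higher were Prxl2c (0.44), Usp12 (0.30), Nudt9 (0.26), Map7d3 (0.25) and Ube2n (0.19), the last an enzyme that builds lysine-63 ubiquitin chains. Second probes of Prkdc (-0.05), Prxl2c (0.18), Rps9 (-0.04), Ube2n (-0.15) and Zfp346 (-0.05) were tested and all overlapped between the pool sets, for Ube2n with the opposite sign.

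The integrated stress response list, of which Atf4 is the central factor, held 1 separated gene, Atf4 itself. Its other 10 tested members had a median of -0.12 and ranged from -0.25 to 0.02, with 8 below 0 and 0 separated. As 0.366% of all genes were separated, 0 of 10 says nothing about these members. Asns, the asparagine synthetase that ATF4 switches on, stood at -0.12, Trib3 at -0.16, Chac1 at -0.07 and Ddit3, which encodes CHOP, at 0.02. Slc7a5, a large neutral amino acid transporter, was the lowest of the 10 at -0.25, but that value rests on mutant pool 3, which read 11.80 against 10.14 to 10.61 in the other arrays of pools 1 to 4. Without it Slc7a5 stood at -0.05. Mutant pool 3 was also the highest for Chac1, at 12.04 against 9.11 to 9.67, and without it Chac1 stood at 0.27. Within chip 2 Asns stood at -0.02, Trib3 at -0.16, Chac1 at 0.175, Ddit3 at 0.15 and Slc7a5 at -0.03.

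Gene lists for cell types and general functions were set beside all genes, of which 0.366% were separated. At that share lists this short would mostly hold none, so these counts say nothing about the lists. Of 34 lists, 3 held any: Atf4 in the stress response list, Arc in the immediate early genes (1 of 13) and H2-D1 in the MHC list (1 of 12). The MHC list had 12 of 12 members below 0 and a median of -0.15 over both genotypes, against 0.002 for all genes. The members were not alike in the 2 genotypes: 8 were below 0 in controls and 8 in mutants, but only 4 of 12 in both. H2-Aa stood at -0.84 in controls and 0.10 in mutants, and B2m at 0.11 and -0.71. H2-D1, a class I heavy chain, read 6.87, 6.87, 6.70 and 6.50 in pools 5 and 6, against 6.89 through 7.06 to 7.50. Probes of class I genes can share transcripts of near-identical family members, which makes single members uncertain. Mutant pool 3 was the highest H2-D1 array. Within chip 2, against pool 4 alone, H2-Aa stood at 0.03, B2m at 0.05 and H2-D1 at -0.26.

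In the Schwann cell and myelin list 11 of 12 members were below 0, with a median of -0.14 and 0 separated. Here and in the lists below a count of 0 says nothing, as 0.366% of all genes were separated. Pmp2 stood at -0.33 and Mag, the myelin-associated glycoprotein, at -0.30, and within chip 2 at -0.38 and -0.11. Leaving out 1 array, a setting added after seeing the data for the list members named, gave -0.503 to -0.225 for Pmp2 (the lowest without mutant pool 3) and -0.373 to -0.172 for Mag (the highest without control pool 6). The mean level of the list ran from 8.77 to 8.97 in pools 5 and 6 and from 8.77 to 9.15 in pools 1 to 4. The pericyte and smooth muscle list had the highest median, 0.32 over 7 members, with 0 separated, and its mean level ran from 6.47 to 6.92 against 6.24 to 6.82. Acta2 (0.64), Tagln (0.43), Myh11 (0.33) and Rgs5 (0.32) were above 0, and Pdgfrb (-0.13), Des (-0.12) and Cspg4 (-0.04) below. Within chip 2, against pool 4 alone, these 7 stood at 0.44, 0.33, 0.28, -0.09, -0.06, 0.01 and -0.08 in the same order. Control pool 5 was the highest for Acta2, at 11.15, and without it the difference was 0.27 for Acta2 and 0.09 for Myh11. Tagln was detected on 1 of the 8 arrays of pools 1 to 4, so its level there is close to background. Fewer cells of a type and less RNA per cell cannot be told apart in whole ganglia. Sst, the neuropeptide somatostatin of itch neurons, stood at -0.99 in a list whose median was -0.03 over 11 members, and that value rests on mutant pool 6. That array read 5.93, against 8.21 to 9.33 in the other 3 arrays of pools 5 and 6, and without it the difference was -0.20. Nppb (-0.53) and Il31ra (-0.35) were also low in that array, and stood at -0.03 and 0.11 without it.

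**Figure D5:**
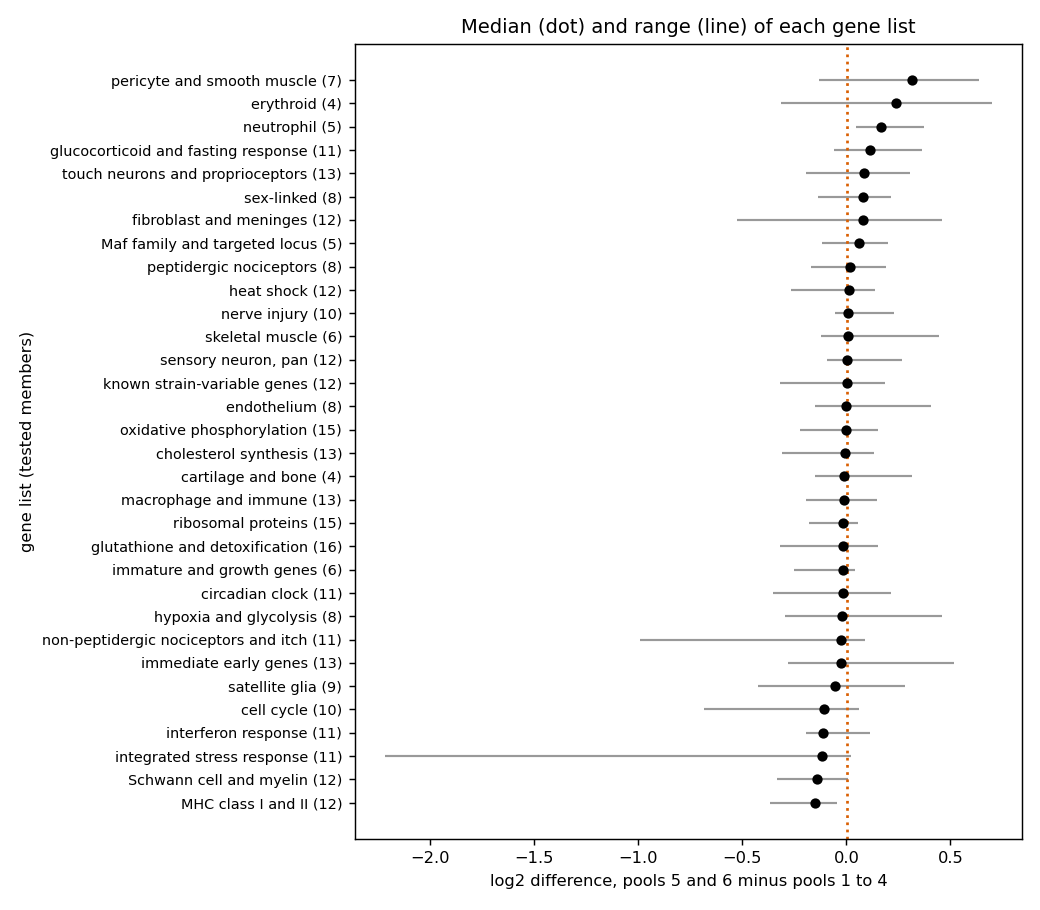
Median (dot) and range (line) of the log2 difference, pools 5 and 6 minus pools 1 to 4, for the gene lists with at least 4 tested members, whose number is in brackets; the dotted line is the median of all tested genes at 0.002. Medians run from -0.15 (MHC class I and II) to 0.32 (pericyte and smooth muscle), and the long line of the integrated stress response list ends at Atf4 (-2.22).

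A list of 30 genes known to vary between mouse strains had 12 tested members. They had a median of 0.001 and ranged from -0.32 (Glo1, the glyoxalase) to 0.19 (Casp4), and 0 of 12 were separated, where 0.366% of all genes were, so this count says nothing about these members. Within chip 2 Glo1 stood at 0.14 and Casp4 at 0.21. Sex-linked genes did not follow the pool sets. Eif2s3y, a gene of the Y chromosome, read 8.85 to 9.38 on 6 arrays, 2 of 4 in pools 5 and 6 and 4 of 8 in pools 1 to 4, and 4.41 to 4.63 on the other 6. Xist, the RNA that coats the inactive X chromosome, read 5.48 to 6.05 on the first 6 and 7.55 to 8.53 on the others.

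Markers of the labelled tissue were detected, and so were some of other tissues. Of 10 markers of sensory neurons 7 were tested, and 6 were detected on all 12 arrays, with a mean level of 11.10 to 11.18 in pools 5 and 6 and 10.99 to 11.23 in pools 1 to 4. None of 4 adipocyte markers was tested, but Lpl, of the longer adipocyte list, was detected on all 12 arrays. Of 5 skeletal muscle and 6 spinal cord markers, 2 of each were tested. Of each, 1 was detected on all 12 arrays, Acta1 and Aqp4. In the 12 marker sets 0 markers were separated, where 0.366% of all genes were, so this count says nothing about the markers. Between 12892 and 13332 probes were detected on the arrays of pools 5 and 6 and between 12822 and 13491 on the others, and correlations between arrays ran from 0.977 to 0.992. The number of arrays limits the precision. The 286 probes detected on exactly 4 arrays, just inside the filter, differed by -0.78 to 0.33, and the 354 detected on exactly 3, just outside, by -0.48 to 0.46. No probe was detected on the 4 arrays of pools 5 and 6 alone.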

How the data were processed

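The deposited intensity of each probe came from GenomeStudio, per the submitters' processing notes, with no version given; these deposited intensity values were neither background-corrected nor normalized. The file headers give a detection p-value per probe and array, which the authors deposited beside it. From these, log2 values were computed with the neqc steps of limma 3.58.1 under R 4.3.3 (normexp with an offset of 16, then quantile normalization). A deposited table of processed intensity values, with minima of -25.1 and column medians of 24.1 to 24.2 and with the making not given in the sources used here, served as an alternative; it ranked probes as the intensities did (Spearman 1).

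Of 25697 probes, 11969 were left out by the detection filter; 799 tested probes carried no gene name. Platform annotation gave 1 symbol to 23978 probes and none to 1719, and 23962 matched RefSeq (GRCm38.p6) by gene ID, with 0 symbols changed. RefSeq gave gene order alone, with promoter windows. No build is named in the files. limma (lmFit, eBayes) was fitted on pool set and genotype, within chip 2, and with their product, with Benjamini-Hochberg adjustment over all tested probes. Runs were windows of 20 tested genes with at least 4 picked genes. A bound set the brighter mean against each array's higher of its lowest detected signal and the probe's own value. The rule for named genes took the genes past the cut (up to 12 each way), up to 3 per list, the ends of runs, the 5 smallest p values of the product, and Maf, Isl1 and sex-linked genes; complete separation was added after the cut gave 3 genes. The pools, lists and tests were chosen with earlier results of these data known. The pool set fit, the product test and the separation rule were also run on simulated log2 values. The other steps were not.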

Additional observations from a re-analysis of the deposited data

Results flagged for a closer look

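Of 90 sets of values looked at (named genes in each pool set), 8 had 1 array far from the rest, where 1 in 20 would give about 4. In pools 5 and 6, Atp2c1 read 6.39 in mutant pool 6 (nearest 8.42), Pdgfb read 6.30 in mutant pool 5 (nearest 6.83) and Prkdc read 6.32 in control pool 6 (nearest 6.43). In pools 1 to 4, Tedc1 read 6.06 in mutant pool 2 (nearest 5.53), Bmyc read 6.04 in control pool 3 (nearest 5.51) and Isl1 read 11.96 in control pool 1 (nearest 11.51). Mutant pool 3 was apart for H2-D1, at 7.50 (nearest 7.16), and for Usp12, at 5.80 (nearest 6.26).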

How the results depend on the processing

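Gramd4, Atf4 and Tomm22 stayed lower in pools 5 and 6 under all alternatives tried, with differences of -3.32 to -1.89, -2.50 to -1.92 and -2.29 to -1.58; Gramd4 was not tested with probes detected on 12 arrays. The cut of the pool split listed 5 genes with array weights, 0 in controls alone and 1 in mutants alone, which hold 6 arrays each, and 3 to 5 without any 1 array (5 without control pool 1). Atf4 missed it with the chip as a block (adjusted p = 0.0504 in limma), in a range of 0.000495 to 0.326, and Tomm22 missed it with the 2 arrays of a number averaged (adjusted p = 0.0517 in limma). Within chip 2 there were 7 genes with normexp at offset 50, 7 with an intensity trend, 2 with probes detected on 12 arrays, and 4 to 5 without any 1 array. Completely separated genes numbered 55 with no filter and 41 to 97 without any 1 array, where fewer arrays must separate; those on chromosome 15 then numbered 10 to 13. The most, 97, came without control pool 5 and 94 without mutant pool 6. The product test called 0 to 3 probes without any 1 array. The control and the mutant array of a pool number, each taken relative to its own genotype, correlated at -0.12 to 0.19. The numbers were therefore not taken to pair the samples. With the number as a replicate block (consensus correlation 0.018) the split listed 3 genes and the product test called 0. Other causes of these changes were not tested.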
